A study of Mus musculus with 2 samples.

Results

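The central vein of the liver lobule is lined by endothelial cells that express Rspo3. In the library labelled E18.5, a rule on transcripts found 246 endothelial cells high in Rspo3, and their place in the lobule was not measured. They were 5.21% of the 4721 cells of that library that passed the quality filters (exact binomial 95% interval 4.59 to 5.88%), of 9871 barcodes in that library and 19642 in both libraries of the series. A barcode marks 1 droplet and is called a cell here. Transcripts were counted as UMIs (unique molecular identifiers, each standing for 1 captured RNA molecule) by droplet-based 3′ single-cell sequencing.

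Blood crosses the liver lobule from the portal tract through the sinusoids to the central vein, and the endothelium differs along this path. Central vein endothelium is known as a source of R-spondin 3 and of Wnt ligands. R-spondins bind LGR receptors and keep the ubiquitin ligases RNF43 and ZNRF3 from removing Frizzled receptors, which raises the response to Wnt, and in the adult mouse liver this signal maintains the gene programme of the hepatocytes around the central vein. Sinusoidal endothelium is fenestrated and takes up waste through scavenger receptors such as stabilin 2.

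A cell was a member when it held at least 200 genes and 500 UMIs, under 25% mitochondrial UMIs, at least 5 UMIs of Rspo3, at least 2 UMIs over the endothelial genes Ptprb, Flt1, Tek, Egfl7 and Cdh5, at most 1 UMI over the mesenchymal genes Dcn, Col1a1 and Col3a1, and 0 UMIs of the B cell gene Cd79a. Among 314 barcodes with at least 5 UMIs of Rspo3, 43 had a mitochondrial share of 25% or more. Of the 271 kept, 25 were left out by the other conditions: 11 held too few endothelial UMIs, 19 held mesenchymal UMIs above the limit and 7 held Cd79a, with some cells failing more than 1 condition. The members were thus chosen by their measured counts of Rspo3 and of the other genes of the rule, whose values are given only as a description. Rspo3 ranged from 5 to 115 UMIs per cell with a median of 28, and its summed level was 5745 CPM (UMIs of a gene per 1000000 UMIs of the set; exact Poisson interval 5619 to 5872). Just inside the threshold lay 17 cells with 5 or 6 Rspo3 UMIs, of which Stab2, the stabilin 2 gene, was found in 10, Kit in 12 and Vwf in 6. Just outside it lay 15 endothelial cells with 3 or 4 Rspo3 UMIs, of which Stab2 was found in 7, Kit in 6 and Vwf in 7.

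The series holds 1 liver labelled E18.5, an embryonic stage in days, and 1 labelled P180 (postnatal day 180). Per the labels, both animals were Hhex knockouts whose blastocysts had been injected with tetraploid (4N) embryonic stem cells positive for tdTomato, and both carry the treatment 4N. No liver without the knockout or the injected cells was analysed here, and the gene table held 0 features for tdTomato, so cells of host and donor origin were not told apart. With 1 library per label, cells are not replicates of a condition: no test between sets of cells was made, and every interval is a 95% interval that covers counting error only.

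The content of both libraries went against the stage in their labels, so each is called by its label only. In the library labelled E18.5, 29.3% of cells held at least 2 UMIs of Cd79a, Jchain of plasma cells reached 2031 CPM, and haemoglobin made up 1.22% of UMIs. In the library labelled P180 these values were 2.2%, 0.0668 CPM and 35.5%. Mki67, a proliferation gene, was found in 5.06% of cells with the E18.5 label and in 59.8% with the P180 label. Which stage each library represents cannot be told apart from these data. Median depth over all barcodes was 2326 UMIs with the E18.5 label and 5899 UMIs with the P180 label. The libraries shared 28 barcode sequences, and 0 of the 246 members carried one of them.

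Members were set against 2 gates within the same library, neither of which uses Rspo3 beyond requiring fewer than 5 UMIs. The sinusoidal gate held 382 endothelial cells with at least 2 UMIs of Stab2 and at most 2 of Mecom and Nrg1 together. The vessel gate held 224 endothelial cells with at least 3 UMIs of Mecom and Nrg1 together and at most 1 of Stab2. It is called by these genes, and which vessel its cells lined was not tested. The remaining 305 endothelial cells fell into neither gate. Median depth was 5381 UMIs in Rspo3-high cells, against 2787.5 in the sinusoidal gate and 4153.5 in the vessel gate, and the median mitochondrial share was 8.68%, against 15.3% in the sinusoidal and 10.2% in the vessel gate. The summed UMIs behind each level were 1382516 in Rspo3-high cells, 1256652 in the sinusoidal gate and 1212909 in the vessel gate.

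Hhex, the homeobox gene knocked out in the host, gave 216 UMIs in Rspo3-high cells, or 156 CPM (136 to 179), with at least 1 UMI in 44.3% of cells. The level was 112 CPM (94.4 to 132) in the sinusoidal gate, 177 CPM (154 to 203) in the vessel gate and 59.2 CPM in B cells. The sources used here do not give which stretch of Hhex was deleted, so 3′ transcripts check neither the knockout nor the origin of a cell. Hhex lies on chromosome 19 at 37434810 to 37440731 (plus strand, GRCm38, the assembly also named mm10).

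Vwf, Cdh13, Fabp4 and Eng are the 4 markers given for the type that the rule did not use. They were given with these cells, which were chosen with earlier results of these data known. Their levels are thus a description and do not check the label of central vein endothelium. All 4 were at higher levels in Rspo3-high cells than in either gate. Cdh13, which encodes T-cadherin, had 0 to 64 UMIs per cell with a median of 13.5, and 99.6% of cells held at least 1. Its level of 2843 CPM (2754 to 2933) stood against 480 CPM (442 to 520) in the sinusoidal gate and 1084 CPM (1026 to 1144) in the vessel gate. Fabp4, a fatty acid binding protein of endothelium and fat, had a median of 17.5 UMIs and a level of 4729 CPM (4615 to 4845), against 1102 in the sinusoidal and 2332 CPM in the vessel gate. The endoglin gene Eng, a co-receptor of the TGF-beta family, had a median of 9 UMIs and 1890 CPM (1818 to 1964), against 905 in the sinusoidal and 496 CPM in the vessel gate. The range of each of these genes over single cells overlapped between the sets. The ratios of Fabp4 and Vwf over the vessel gate and of Eng over the sinusoidal gate lay close to 2-fold and came under it in 6, 2 and 3 of the processing alternatives.

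Wnt ligands were present together with Rspo3. Wnt2, on chromosome 6 at 17988940 to 18030585 (minus strand), had 0 to 13 UMIs per cell with a median of 1, and 74.0% of Rspo3-high cells held at least 1, against 21.5% in the sinusoidal gate and 4.46% in the vessel gate. Its level was 373 CPM (341 to 406), against 99.5 CPM (82.8 to 119) in the sinusoidal and 9.89 CPM (5.11 to 17.3) in the vessel gate. Wnt9b, on chromosome 11 at 103727364 to 103749821 (minus strand), was found in 49.2% of Rspo3-high cells, with 0 to 7 UMIs per cell. It had 256 UMIs or 185 CPM (163 to 209) there, against 4 UMIs or 3.18 CPM (0.867 to 8.15) in the sinusoidal gate and 0 UMIs in the vessel gate, a ratio at least 74.9-fold higher against a floor of 3 UMIs in that gate. B cells, which should lack both genes, held a Wnt2 UMI in 0.242% of cells and a Wnt9b UMI in 0%, at a median depth of 4975.5 UMIs. With every cell thinned to 1000 UMIs, Wnt2 was found in 29.4% of Rspo3-high cells, against 9.12% in the sinusoidal gate, 1.35% in the vessel gate and 0% of B cells, and Wnt9b in 17.1%, against 0% in each of the other sets.

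Rspo3-high cells were level with the sinusoidal gate in Kit, and higher than both gates in Vwf and Lhx6. Kit, a receptor tyrosine kinase known from the sinusoidal endothelium near the central vein in mouse, had 190 CPM (168 to 215) in Rspo3-high cells and 198 CPM (174 to 224) in the sinusoidal gate, a difference within counting error (log2 ratio −0.06, interval −0.31 to 0.20), against 1.65 CPM (0.2 to 5.96) in the vessel gate. The vein and vessel gene Vwf, for von Willebrand factor, was nearer the vessel gate but higher than in both. It was at 1248 CPM (1190 to 1309) in Rspo3-high cells, against 19.9 CPM (12.9 to 29.4) in the sinusoidal gate and 541 CPM (500 to 584) in the vessel gate. Lhx6, a LIM homeobox transcription factor, had 231 CPM (206 to 258), against 21.5 CPM (14.2 to 31.3) in the sinusoidal and 0.824 CPM (0.0209 to 4.59) in the vessel gate.

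A ratio is called 2-fold here when the levels of a gene with at least 50 UMIs in either set differed at least 2-fold. Of the 10 genes listed as pericentral endothelial, Rspo3 was left out as a gene of the rule and 9 were described. Against the sinusoidal gate 8 were at least 2-fold higher and 0 lower, with a median log2 ratio of 2.57, where 8.36% of all 5395 genes were higher and 6.34% lower, with a median of 0.07. Against the vessel gate 8 were higher and 0 lower with a median of 4.24, where 6.12% of 5437 genes were higher and 6.07% lower, with a median of −0.00. Against all 911 other endothelial cells the corresponding background was 4.12% higher and 12.4% lower of 9197 genes. The list was chosen with results of these cells known, so its count is a description. The Wnt list of 33 genes gave 12 described genes against the sinusoidal gate, of which 4 were higher (Wnt9b, Rnf43, Wnt2 and Fzd6) and 0 lower. Of 13 described against the vessel gate, 5 were higher and 1, Tspan12, lower. Rnf43, the ubiquitin ligase that R-spondins hold back, was at 44.1 CPM (33.8 to 56.7), against 4.77 CPM (1.75 to 10.4) in the sinusoidal gate and 4.12 CPM (1.34 to 9.62) in the vessel gate. Its relative Znrf3 was at 27.5 CPM, against 27.9 in the sinusoidal and 42.0 CPM in the vessel gate, and the R-spondin receptor Lgr4 at 21.0 CPM, against 10.3 in the sinusoidal and 14.0 CPM in the vessel gate. Axin2, a common Wnt target gene, had 9 UMIs in Rspo3-high cells, against 6 UMIs in the sinusoidal and 1 UMI in the vessel gate.

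**Figure D1:**
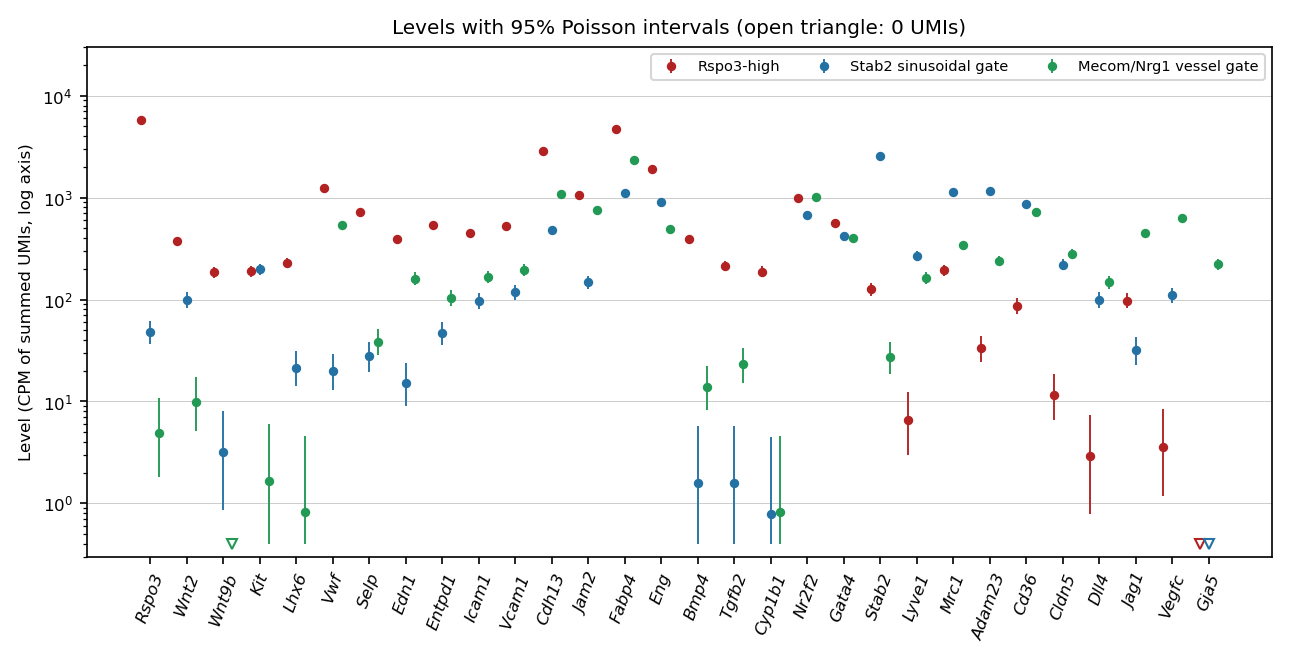
Levels of 30 genes in Rspo3-high cells (red, left), the Stab2 sinusoidal gate (blue, middle) and the Mecom/Nrg1 vessel gate (green, right), as CPM of summed UMIs on a log axis with exact Poisson 95% intervals; open triangles mark 0 UMIs. Wnt2, Wnt9b, Lhx6, Selp and Bmp4 stand higher in red than in either other set, Kit lies together for red and blue, and Stab2, Lyve1 and Adam23 stand higher in blue.

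Other genes differed in where along the range of Rspo3 they changed. Among the 1157 endothelial cells of the library, 854 held 0 Rspo3 UMIs, 57 held 1 to 4, 40 held 5 to 9, 46 held 10 to 19 and 160 held 20 or more. Wnt2 was at 29.6, 181, 359, 352 and 377 CPM over these bands, so that its level from 5 UMIs of Rspo3 upwards was flat within counting error. Wnt9b was at 0.245, 23.9, 175, 123 and 196 CPM. Vwf was at 204, 119, 359, 904 and 1389 CPM, and was higher in each higher band of the members. Kit was highest in the band of 5 to 9 UMIs, at 589 CPM (454 to 752), against 62.0 CPM at 0 Rspo3 UMIs and 149 CPM (127 to 173) at 20 or more. Stab2 was at 838, 1270, 1059, 247 and 16.3 CPM. Median depth was 3110.5, 2905, 2276.5, 3157 and 6492 UMIs over the same bands, so the bands differ in depth as well as in Rspo3, and the part of depth in these levels was not tested.

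**Figure D2:**
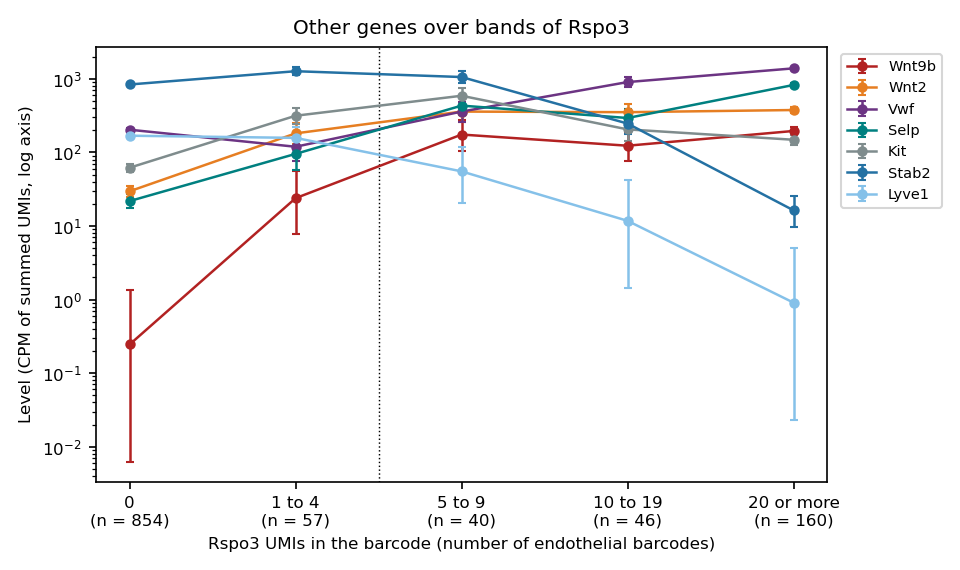
Levels of 7 genes (CPM of summed UMIs, log axis, exact Poisson 95% intervals) over 5 bands of Rspo3 UMIs among 1157 endothelial cells, with the member threshold as a dotted line. Wnt2 is flat and Wnt9b lies between 123 and 196 CPM from 5 Rspo3 UMIs upwards, Vwf climbs to 1389 CPM, Kit peaks at 589 CPM in the band of 5 to 9, and Stab2 drops to 16.3 CPM in the band of 20 or more.

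Many genes of veins and haemostasis, and some of leukocyte adhesion, were higher in Rspo3-high cells. These lists overlap, so their counts are not separate. Vwf and Selp are in the pericentral, vein and haemostasis lists, and Selp, Vcam1 and Ackr1 in the vein and adhesion lists. The vein list gave 12 described genes of 13, of which 7 were higher and 0 lower against the sinusoidal gate (median log2 ratio 1.59), and 9 were higher and 0 lower against the vessel gate (1.27). The venous receptor gene Ephb4 was at 341 CPM (311 to 373), against 168 in the sinusoidal and 159 CPM in the vessel gate, and Il1r1, the interleukin 1 receptor, at 958 CPM (907 to 1011), against 205 in the sinusoidal and 153 CPM in the vessel gate. The venous transcription factor gene Nr2f2 was at 980 CPM (929 to 1034), against 677 in the sinusoidal and 1012 CPM in the vessel gate, so it differed from the vessel gate by no more than counting error. Selp, for P-selectin, which slows leukocytes on the vessel wall, had 0 to 79 UMIs per cell with a median of 1. Its level was 730 CPM (685 to 776), against 27.9 CPM (19.4 to 38.7) in the sinusoidal and 38.7 CPM (28.5 to 51.5) in the vessel gate, and 68.3% of Rspo3-high cells held it, against 7.59% in the sinusoidal and 15.6% in the vessel gate. Selp lies on chromosome 1 at 164115264 to 164150026 (plus strand) and Vwf on chromosome 6 at 125546774 to 125686679 (plus strand). The adhesion list had 5 higher and 0 lower of 12 described genes against the sinusoidal gate (median 0.87). Against the vessel gate it had 5 higher and 1, Cd34, lower of 13, with a median of 0.17. Vcam1 and Icam1, adhesion molecules for leukocytes, were at 524 CPM (486 to 563) and 450 CPM (415 to 487), against 118 and 97.1 CPM in the sinusoidal gate and 196 and 167 CPM in the vessel gate.

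The haemostasis list gave 11 described genes of 19, with 6 higher and 0 lower against the sinusoidal gate (median 1.93) and 5 higher and 0 lower against the vessel gate (0.99). Entpd1, which breaks down extracellular ATP and ADP, was at 540 CPM (502 to 580), against 47.0 in the sinusoidal and 105 CPM in the vessel gate. Edn1, the precursor of the vasoconstrictor endothelin 1, was at 396 CPM (363 to 430), against 15.1 in the sinusoidal and 161 CPM in the vessel gate. Thbd, for the anticoagulant receptor thrombomodulin, was at 136 CPM (117 to 157), against 29.4 CPM in the sinusoidal gate and 98.1 CPM (81.3 to 117) in the vessel gate. F8, for coagulation factor VIII, was at 1104 CPM (1049 to 1161) and 1097 CPM (1040 to 1157) in Rspo3-high and sinusoidal cells, against 557 CPM in the vessel gate. Plvap, which forms the diaphragms of endothelial pores, was at 563 CPM (524 to 604), against 149 in the sinusoidal and 519 CPM in the vessel gate, and the junction gene Jam2 at 1062 CPM (1008 to 1118), against 149 in the sinusoidal and 749 CPM in the vessel gate.

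Genes of the sinusoid were lower but not absent. Of 18 described genes of the sinusoid list, 0 were higher and 13 lower than in the sinusoidal gate (median −1.88). Against the vessel gate 3 of 17 were higher and 2 lower (median 0.28, which ranged from −0.11 to 0.54 over the alternatives). Lyve1, a hyaluronan receptor, was at 6.51 CPM (2.98 to 12.4), against 268 CPM (240 to 298) in the sinusoidal gate and 163 CPM (141 to 188) in the vessel gate. The mannose receptor gene Mrc1 was at 193 CPM (171 to 218), against 1140 in the sinusoidal and 344 CPM in the vessel gate, and Adam23, an ADAM family gene, at 33.3 CPM (24.4 to 44.4), against 1158 in the sinusoidal and 239 CPM in the vessel gate. The lectin gene Clec4g was at 223 CPM (199 to 249), against 754 in the sinusoidal and 243 CPM in the vessel gate, and the Fc receptor gene Fcgr2b at 212 CPM (188 to 238), against 960 in the sinusoidal and 175 CPM in the vessel gate. Gata4, a transcription factor gene of liver sinusoidal endothelium, was found in 78.9% of Rspo3-high cells at 563 CPM (524 to 604), against 422 in the sinusoidal and 404 CPM in the vessel gate. Maf, another such factor, was at 754 CPM (709 to 802), against 2429 in the sinusoidal and 702 CPM in the vessel gate. The receptor gene Kdr, for the main VEGF receptor of endothelium, was at 568 CPM (529 to 609), against 1430 in the sinusoidal and 263 CPM in the vessel gate, and Flt4 at 103 CPM (87.2 to 122), against 436 in the sinusoidal and 118 CPM in the vessel gate. Of 8 described angiopoietin and VEGF genes, 0 were higher and 5 lower than in the sinusoidal gate, with Angpt2, an antagonist at the TIE2 receptor, at 1 UMI, against 57 UMIs in that gate, and Esm1 at 0 UMIs, against 205 UMIs in that gate, at least 75.2-fold lower against the floor of 3 UMIs.

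Most arterial and portal-side genes listed, and the Notch ligand genes Dll4 and Jag1, were lower in Rspo3-high cells than in the vessel gate. Dll4, Efnb2 and Jag1 are in both the periportal and the artery list, and Dll4 and Jag1 also in the Notch list. Of 11 described genes of the Notch list, 5 were lower and 1, Lfng, higher than in that gate (median −0.33). The Notch ligand gene Dll1 was less than 2-fold apart from the vessel gate and at least 2-fold higher than in the sinusoidal gate. All 7 genes of the periportal endothelial list were at least 2-fold lower than in the vessel gate (median −3.49), and 4 were lower and 2 higher than in the sinusoidal gate (median −1.02). Dll4, a Notch ligand of arteries and sinusoids, had 4 UMIs or 2.89 CPM (0.788 to 7.41), against 98.7 CPM (82.1 to 118) in the sinusoidal gate and 148 CPM (128 to 172) in the vessel gate. Efnb2, the arterial partner of Ephb4, was at 17.4 CPM (11.1 to 25.8), against 164 in the sinusoidal and 297 CPM in the vessel gate. The Notch ligand gene Jag1 stood between the gates, at 97.6 CPM (81.9 to 116), against 31.8 CPM (22.7 to 43.3) in the sinusoidal gate and 449 CPM (412 to 489) in the vessel gate, as did Adgrg6, an adhesion receptor, at 94.0 CPM (78.6 to 112), against 36.6 in the sinusoidal and 1059 CPM in the vessel gate. Gja5, the connexin 40 gene of arteries, was at 0 UMIs, as in the sinusoidal gate, against 270 UMIs in the vessel gate, at least 103-fold lower. Vegfc, a growth factor for lymphatic vessels, was at 3.62 CPM (1.17 to 8.44), against 111 in the sinusoidal and 634 CPM in the vessel gate, and Cldn5, for the tight junction protein claudin 5, at 11.6 CPM (6.62 to 18.8), against 220 in the sinusoidal and 283 CPM in the vessel gate. Of the artery list, 9 of 11 described genes were lower and 1, Fbln5, higher than in the vessel gate (median −2.80), and 4 were lower and 4 higher than in the sinusoidal gate (median 0.02, range −0.59 to 1.44). Hepatocyte and bile duct transcripts were lower in Rspo3-high cells than in the vessel gate. The 8 hepatocyte markers summed to 247 CPM with Cps1 at 0, against 1256 CPM in the vessel gate with Cps1 and Cyp2e1 at 0. The 5 bile duct markers summed to 86.8 CPM in Rspo3-high cells, with 0 to 102 UMIs per cell and Krt7 at 0, against 2614 CPM in the vessel gate with 0 to 1559 UMIs per cell and none of the markers at 0. Over all alternatives, 1 of which left out cells with bile duct transcripts, the list medians against this gate ranged from −3.78 to −2.94 for the periportal and from −4.31 to −2.37 for the artery list.

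**Figure D3:**
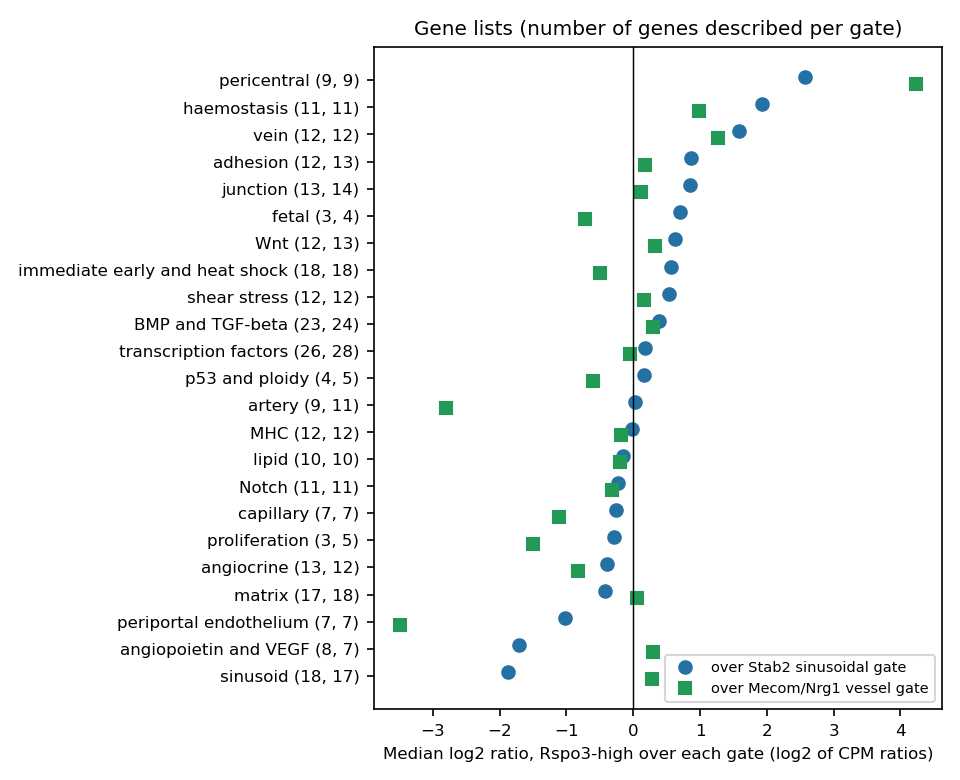
Median log2 ratio of 23 gene lists, Rspo3-high cells over the sinusoidal gate (blue circles) and over the vessel gate (green squares), with the number of described genes per gate in parentheses. The pericentral, haemostasis and vein lists lie highest, with medians of 2.57, 1.93 and 1.59 over the sinusoidal gate, the sinusoid list lies at −1.88 over that gate, and the periportal and artery lists lie at −3.49 and −2.80 over the vessel gate.

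Among BMP and TGF-beta ligand genes, Bmp4 and Tgfb2 were higher and Bmp2 and Bmp6 lower in Rspo3-high cells than in the sinusoidal gate. Bmp4 had 547 UMIs in Rspo3-high cells, or 396 CPM (363 to 430), and was found in 62.6% of them. It had 2 UMIs in the sinusoidal gate, a log2 ratio of 7.96 (6.10 to 11.01), and 17 UMIs or 14.0 CPM (8.16 to 22.4) in the vessel gate. Tgfb2 was at 215 CPM (191 to 241), against 1.59 CPM (0.193 to 5.75) in the sinusoidal and 23.1 CPM (15.3 to 33.4) in the vessel gate. Bmp2, a ligand by which sinusoidal endothelium acts on hepatocyte iron control, was at 179 CPM (158 to 203), against 717 CPM (671 to 765) in the sinusoidal gate and 75.9 CPM (61.1 to 93.0) in the vessel gate. Bmp6, with the same known role, was at 68.0 CPM (54.9 to 83.2), against 316 in the sinusoidal and 110 CPM in the vessel gate. The receptor gene Tgfbr2 was at 463 CPM (428 to 500), against 131 in the sinusoidal and 256 CPM in the vessel gate. Of 23 described genes in this list, 5 were higher and 2 lower than in the sinusoidal gate (median 0.39). Of 24 described against the vessel gate, 5 were higher and 3 lower (0.30).

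Across all genes other than those of the rule and the gates, the 15 highest ratios over the sinusoidal gate were those of Bmp4, Cyp1b1, Samd5, Cd200, Pcdh7, Tgfb2, Klhl29, Col14a1, Epha4, Ncam1, Thsd7a, Fmo2, Vwf, Wnt9b and Nuak1, taken among genes with at least 100 UMIs over both sets and found in at least 20% of the cells of the higher set. Cyp1b1, a cytochrome P450 enzyme, had 260 UMIs or 188 CPM (166 to 212), against 1 UMI in each gate. Fmo2, a flavin monooxygenase, was at 514 CPM (477 to 554), against 7.96 CPM (3.82 to 14.6) in the sinusoidal and 61.0 CPM (47.9 to 76.6) in the vessel gate. The adhesion molecule gene Ncam1 was found in 45.1% of Rspo3-high cells at 194 CPM (171 to 219), with 0 UMIs in the sinusoidal gate, at least 81.2-fold higher, and 2 UMIs in the vessel gate. Nr1h4, the gene of the bile acid receptor FXR, was found in 36.6% of Rspo3-high cells at 91.9 CPM (76.6 to 109), against 3.18 CPM in the sinusoidal and 0 UMIs in the vessel gate. Thsd7a and Cd200 stood at 414 and 138 CPM, within 2-fold of the vessel gate with 478 and 149 CPM. Pcdh9, a protocadherin gene, had the highest ratio over the vessel gate (log2 9.32, interval 6.84 to 14.63), at 527 CPM (490 to 567), and was found in 27.6% of Rspo3-high cells.

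The lowest ratios over either gate were ranked with the same minimums of UMIs and share of cells. Over the sinusoidal gate they were those of Csmd1, Lyve1, Il1a, Adam23, Dll4, Msr1, Cldn5, Gatm, Nr5a2, Aass, Hgf, Enpep, Tnik, Cd36 and Gm46565. Esm1 was not ranked, since it was found in under 20% of the cells of that gate. Hgf, hepatocyte growth factor, was at 12.3 CPM (7.16 to 19.7), against 157 CPM (136 to 180) in the sinusoidal gate and 21.4 CPM (14.0 to 31.4) in the vessel gate. The fatty acid transporter gene Cd36 was at 86.8 CPM (72.0 to 104), against 865 in the sinusoidal and 727 CPM in the vessel gate, whereas Fabp4 of the same lipid list was higher than in both. Against the vessel gate the lowest ratio was that of Igfbp5 (log2 −8.00, interval −13.31 to −5.51), at 1 UMI, against 225 UMIs in that gate, followed by Sdc1, Vegfc, Col8a1, Npr3, Gja5, Bmper, Slc45a4, Dll4 and Il1a.

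Matrix genes differed by gene. Fbln5 and Fbln2, fibulins of elastic fibres, were at 150 CPM (130 to 172) and 501 CPM (464 to 539), against 3.18 and 16.7 CPM in the sinusoidal gate and 61.8 and 392 CPM in the vessel gate. Elastin (Eln) was at 148 CPM (129 to 170), against 8.75 in the sinusoidal and 131 CPM in the vessel gate, and the proteoglycan gene Bgn at 766 CPM (721 to 814), against 110 in the sinusoidal and 317 CPM in the vessel gate. The laminin gene Lama4 was lower than in both gates, at 120 CPM (102 to 140), against 372 in the sinusoidal and 434 CPM in the vessel gate. Of 17 described matrix genes, 5 were higher and 3 lower than in the sinusoidal gate (median −0.43), and of 18, 2 were higher and 5 lower than in the vessel gate (0.06, range −0.12 to 0.08). Among 26 described transcription factor genes 5 were higher and 4 lower than in the sinusoidal gate. Of 28 described against the vessel gate, 3 were higher and 4 lower. Sox7 was at 96.2 CPM (80.5 to 114), against 35.0 in the sinusoidal and 34.6 CPM in the vessel gate, whereas Sox17, known from arteries, was at 28.9 CPM (20.7 to 39.4), against 66.8 in the sinusoidal and 133 CPM in the vessel gate.

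Rspo3-high cells were not uniform. Stab2 was at 0 UMIs in 213 of the 246 cells, at 1 UMI in 11 and at 2 or more in 22, and Vwf was at 0 in 41 and above 0 in 205. The 17 cells with at least 2 Stab2 UMIs and 0 Vwf UMIs (6.91% of members) had a median of 8 Rspo3 UMIs and 3360 UMIs in all, and the 192 cells with Vwf and without Stab2 (78.0%) had medians of 31.5 and 5740.5 UMIs. Both held the Wnt ligands. Wnt2 was at 626 CPM in the Stab2-positive cells and 371 CPM in the Vwf-positive cells, and Wnt9b at 165 CPM, from 10 UMIs, and 190 CPM (log2 ratio −0.21, interval −1.29 to 0.70). Cdh13 was at 3590 and 2748 CPM, and Eng at 1844 and 1933 CPM, both within 2-fold between the cells. Fabp4 was at 2124 CPM in the Stab2-positive cells and 5051 CPM in the Vwf-positive cells, a 2.38-fold difference, and Selp at 362 and 798 CPM. Of genes that neither split used, Mrc1 was at 1169 CPM in the Stab2-positive cells and 106 CPM in the Vwf-positive cells (log2 ratio 3.46, interval 3.02 to 3.89), Dnase1l3 at 1334 and 168 CPM, Bmp2 at 1120 and 120 CPM, and Kit at 791 and 139 CPM. On the other side, Bmp4 was at 82.3 CPM, from 5 UMIs, in the Stab2-positive cells and 431 CPM in the Vwf-positive cells, Vcam1 at 115 and 577 CPM, Fmo2 at 49.4 and 565 CPM, and Samd5 at 16.5 and 346 CPM. In the Stab2-positive cells, Thsd7a and Ncam1 were at 0 of 60721 UMIs. The Vwf-positive cells held 540 and 256 of 1183771 UMIs, or 456 and 216 CPM. Against the floor of 3 UMIs these were at least 9.23-fold and 4.38-fold higher. By the scores of Scrublet, a doublet caller, 7 of the 246 members were among the 178 highest-scoring barcodes of the library. That number was set by an assumed doublet rate, and Scrublet's own threshold marked 77 barcodes. The part of likely doublets in the split was not tested.

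**Figure D4:**
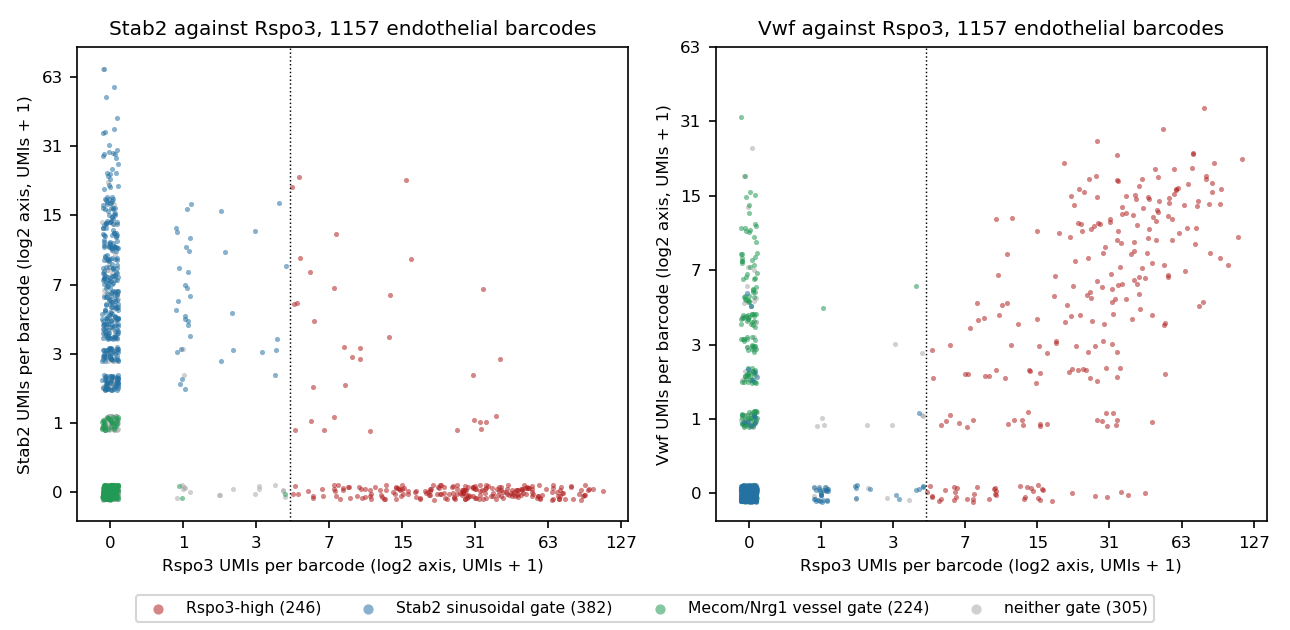
Stab2 (left panel) and Vwf (right panel) UMIs against Rspo3 UMIs per cell in 1157 endothelial cells, on log2 axes of UMIs + 1 with a small random shift to separate points; the dotted line marks the threshold of 5 Rspo3 UMIs. The 246 Rspo3-high cells (red) lie mostly at 0 Stab2 UMIs, the 22 with at least 2 lie mainly at low Rspo3, and Vwf is found in 205 of them.

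Depth ran with this variation. In 3 groups of 82 cells by total UMIs, from shallow to deep, Stab2 was found in 26.8, 8.54 and 4.88% of cells, with levels of 448, 87.4 and 57.1 CPM. Vwf was at 778, 1393 and 1299 CPM, Selp at 377, 506 and 964 CPM, and Wnt9b at 189, 235 and 155 CPM over the same groups. The median mitochondrial share was 17.9, 8.31 and 6.54%. The part of depth and mitochondrial share in the difference between the Stab2-positive and Vwf-positive cells was not tested.

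Transcripts of several other cell types were scarce, but those of erythroid cells were not. The 5 erythroid markers summed to 4373 CPM in 93.5% of Rspo3-high cells, with up to 1803 UMIs in 1 cell. They summed to 14621 CPM in the sinusoidal gate, 9408 CPM in the vessel gate and 8026 CPM in B cells. Hepatocyte markers were found in 58.5%, lymphatic endothelial markers in 41.1% and plasma cell markers in 32.9% of Rspo3-high cells. In Rspo3-high cells, the 11 mesenchymal markers summed to 7.23 CPM with 6 of them at 0, where the rule had limited 3 of them. The 5 T and NK cell markers summed to 10.8 CPM with Cd3e and Trac at 0, the 4 dendritic cell markers to 0.723 CPM with 3 at 0, the 6 macrophage markers to 42.7 CPM with Clec4f at 0. The 4 neutrophil markers summed to 555 CPM with none at 0 and up to 468 UMIs in 1 cell, against 889 CPM in the sinusoidal and 368 CPM in the vessel gate, and their part in the results was not tested. The leukocyte gene Ptprc was found in 3.66% of cells, against 6.28% in the sinusoidal gate and 5.36% in the vessel gate. Albumin was found in 40.2% of Rspo3-high cells and in 36.8% of B cells, and the haemoglobin gene Hbb-bs in 80.1% and 83.1%, and the part of free RNA in these shares was not tested. The class II genes Cd74, H2-Aa, H2-Ab1 and H2-Eb1 were the 4 lower genes of the MHC list against both gates. Cd74 was at 56.4 CPM (44.6 to 70.4) and found in 18.3% of Rspo3-high cells, against 1020 CPM in 15.4% of the sinusoidal and 221 CPM in 10.7% of the vessel gate. The immediate early genes Fos and Jun, known to respond to tissue dissociation, were at 571 and 595 CPM, against 292 and 353 CPM in the sinusoidal gate and 806 and 904 CPM in the vessel gate. Few cells were in cycle by transcript: Mki67 was found in 1.22% of Rspo3-high cells, against 2.09% in the sinusoidal and 1.79% in the vessel gate.

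The same rule found 25 cells in the library labelled P180, from 47 barcodes there with at least 5 Rspo3 UMIs. They held 218277 UMIs in all, with a median depth of 6848 UMIs and 4.02% haemoglobin UMIs, against 0.436% in Rspo3-high cells of the library labelled E18.5. With 25 cells of 1 liver, their levels are a description, and stage, animal and library cannot be told apart. They could be set against 105 other endothelial cells of their own library, taken with at least 2 UMIs over Ptprb, Flt1, Tek and Cdh5 and 0 of Ptprc, a condition added after the data had been seen because the plain endothelial rule gave 265 cells there, of which 30.2% held Ptprc and 74.3% the neutrophil gene Camp. The condition set Ptprc to 0 by construction but did not remove other blood cell transcripts. Of the 130 cells that met it, the 25 and the 105 together, 58.5% still held Camp and 23.1% held Mki67. Cdh13 was at 1984 CPM in the 25 cells, against 244 CPM in the 105. Wnt2 was at 568 CPM, against 44.3 CPM in the 105, Lhx6 at 586 CPM, against 26.6 CPM in the 105, Vwf at 673 CPM, against 145 CPM in the 105, and Entpd1 at 710 CPM, against 60.6 CPM in the 105. Mrc1 was at 151 CPM, against 694 CPM in the 105.

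Between the libraries, Wnt2, Cdh13 and Samd5 differed by less than 2-fold. Wnt2 was at 373 CPM (341 to 406), against 568 CPM (473 to 677) in the 25 cells of the library labelled P180, Cdh13 at 2843 CPM, against 1984 CPM (1801 to 2180) in the 25 cells, and Samd5 at 317 CPM (288 to 348), against 321 CPM (250 to 405) in the 25 cells. Lhx6 was lower, at 231 CPM, against 586 CPM (489 to 697) in the 25 cells, and Wnt9b at 185 CPM, against 87.0 CPM (52.4 to 136) in the 25 cells, from 19 UMIs. Over 5032 genes with at least 50 UMIs in either set, 14.8% were at least 2-fold higher and 4.19% lower, with a median of 0.07. The median log2 ratio over the 758 genes used for median-of-ratios scaling was −0.25, and that scaling removes this shift, so ratios between the libraries near 2-fold depend on the scaling. With fewer UMIs summed under the P180 label, a gene that reached 50 UMIs only there was at least 2-fold lower by construction. Against all 265 endothelial cells of that library, most of them carrying blood cell transcripts, 23.9% of 9767 genes were higher and 29.1% lower, with a shift of 0.61 over the 4720 genes used for that scaling, and these ratios were not used further.

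Antigen presentation genes were higher than in the 25 cells. All 11 described genes of the MHC list were at least 2-fold higher in Rspo3-high cells of the library labelled E18.5 (median log2 ratio 2.69). B2m, the light chain of class I molecules, was at 2213 CPM (2135 to 2292), against 321 CPM (250 to 405) in the 25 cells, and H2-K1 at 1837 CPM (1766 to 1909), against 179 CPM (127 to 244) in the 25 cells. Of 12 described adhesion genes 6 were higher and 1, Icam2, lower. Selp was at 730 CPM, against 27.5 CPM (10.1 to 59.8) in the 25 cells, and Vcam1 at 524 CPM, against 22.9 CPM (7.44 to 53.5) in the 25 cells. Fmo2 was at 514 CPM, against 1 UMI or 4.58 CPM in the 25 cells. Xist, the RNA of the inactive X chromosome, had 2012 UMIs, against 0 UMIs in the 25 cells, at least 106-fold higher. Across every cell that passed the quality filters, Xist stood at 1296 CPM (library labelled E18.5), against 0.089 CPM (library labelled P180). The Xist difference thus ran through the whole libraries and was not particular to these cells, and its cause was not tested. Of the 18 described stress genes 11 were higher and 0 lower, with Hspa1a at 328 CPM, against 18.3 CPM (4.99 to 46.9) in the 25 cells.

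Imprinted genes were among the lower ones. Peg3 was at 6.51 CPM (2.98 to 12.4) in Rspo3-high cells of the library labelled E18.5, against 454 CPM (369 to 552) in the 25 cells, where it was found in 80.0% of them. Mest was at 119 CPM (102 to 139), against 719 CPM (611 to 841) in the 25 cells, and Grb10, an adaptor that limits growth factor signalling, at 186 CPM (164 to 210), against 586 CPM (489 to 697) in the 25 cells. Of 16 described matrix genes 4 were higher and 1, Sparc, lower. Outside that list, Adamtsl1, an ADAMTS-like gene, was at 188 CPM (166 to 212), against 2139 CPM (1950 to 2343) in the 25 cells, and fibrillin 1 (Fbn1) at 208 CPM (184 to 233), against 1118 CPM (982 to 1267) in the 25 cells. Lyve1 was at 6.51 CPM, against 334 CPM (262 to 421) in the 25 cells, and Stab2, which the rule did not use, at 127 CPM (109 to 147), against 302 CPM (234 to 385) in the 25 cells. Mki67 was at 9.40 CPM, against 96.2 CPM (59.6 to 147) in the 25 cells.

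**Figure D5:**
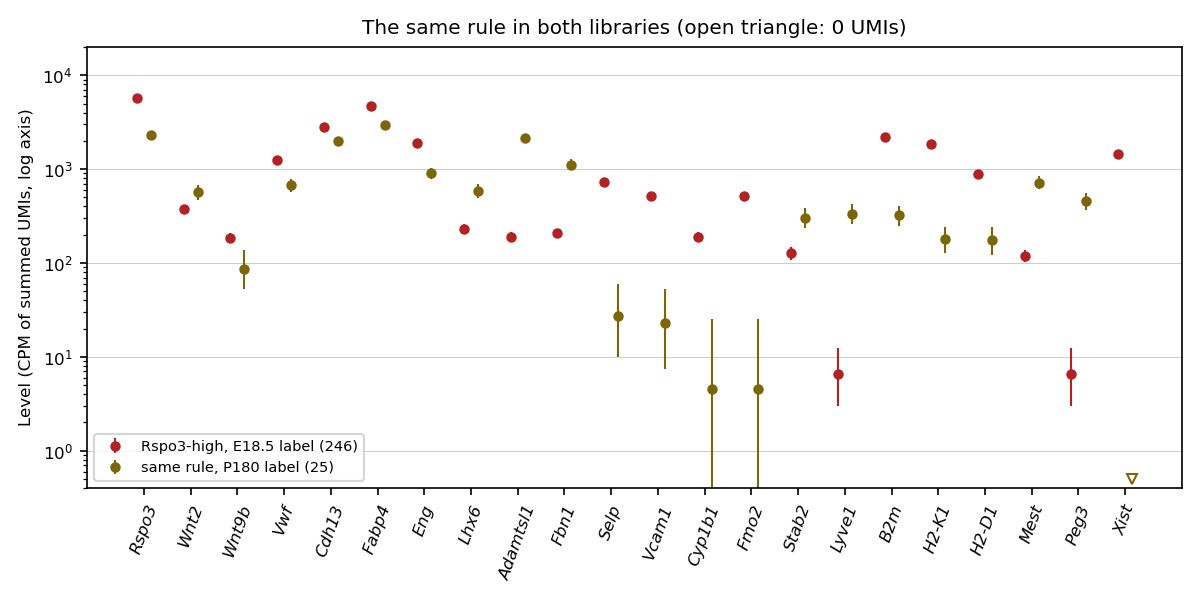
Levels of 22 genes in the 246 Rspo3-high cells of the library labelled E18.5 (red, left) and in the 25 cells that met the same rule in the library labelled P180 (brown, right), as CPM on a log axis with exact Poisson 95% intervals; the open triangle marks 0 UMIs. Wnt2 and Cdh13 lie within 2-fold of each other, Selp, Vcam1, Fmo2, B2m and H2-K1 are higher in red, and Adamtsl1, Fbn1, Lyve1, Mest and Peg3 are lower in red.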

How the data were processed

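RNA of dissociated liver cells was captured with 10x Chromium 3′ v3 chemistry, per the labels' protocols, in 2 libraries (1 liver per label). The values that the authors deposited are raw counts of UMIs for each gene and barcode. Per the file headers they were written by Cell Ranger 7.1.0. All values were whole numbers, and the lowest total was 500 UMIs in both libraries. The submitters' processing notes also name fastp, Trimmomatic, Seurat and mm10. The sources at hand do not say how droplets were called as cells.

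Gates were applied to the counts as deposited. Levels are UMIs summed over a set per 1000000 UMIs, with exact Poisson intervals. Shares have exact binomial (Clopper-Pearson) intervals. Ratios have exact intervals conditional on the sum of both counts. All are at 95% and treat UMIs as independent. A count of 0 was compared through a floor of 3 UMIs over the set. With 1 library per label no test, p-value or SD was computed. Genes were described with at least 50 UMIs in either set.

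Named genes are those of the rule, the extremes and type-defining genes of 23 lists, and the 15 (sinusoidal gate) or 10 (other comparisons) highest and lowest ratios among genes with at least 100 UMIs, found in at least 20% of the higher set and used by neither the rule nor a gate. Other listed genes named beside them were chosen after their values were seen. The members, gates and lists were chosen with earlier results of these data known. The fold calls were tested on simulated data. Loci come from GENCODE M21 (GRCm38), matched by gene ID. Scrublet in scanpy 1.11.5 scored doublets. They were kept, and left out as an alternative at 178 (3.77%) and 735 (7.67%) barcodes, since its own threshold marked 77 and 0. The software was Python 3.11.15 with numpy 2.4.6, scipy 1.17.1, pandas 2.3.3, and for plots matplotlib 3.10.9. Alternatives changed the filters, the Rspo3 and endothelial minimums, the scaling, the depth, the UMI minimum and the fold. Leaving out Stab2-positive members or bile duct transcripts, and the stricter endothelial set with the P180 label, were added after the data had been seen.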

Additional observations from a re-analysis of the deposited data

Results flagged for a closer look

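Among 158 listed genes compared between Rspo3-high cells and other endothelial cells within each library, 62 were at least 2-fold apart with the E18.5 label. Of these 62, 53 went the same direction with the P180 label. Peg3, Inhbb and Fos were at least 2-fold apart in opposite directions. This was not tested in any of these cases, since each label has 1 library. Peg3, an imprinted gene, had a log2 ratio of −1.17 (interval −2.37 to −0.16) with the E18.5 label, and of 4.45 (3.64 to 5.38) for the 25 cells over 105 others with the P180 label, from 99 and 14 UMIs. Inhbb, a subunit of activins and inhibins, had −1.72 (−2.31 to −1.19) with the E18.5 label and 2.51 (1.64 to 3.42) with the P180 label, from 33 and 18 UMIs. Fos, an immediate early gene, had −1.04 (−1.15 to −0.93) with the E18.5 label and 1.31 (0.47 to 2.13) with the P180 label, from 24 and 30 UMIs. Over the sinusoidal gate Fos had a log2 ratio of 0.97 with the E18.5 label, so its direction there depended on the comparator. The comparators were also unlike, since the stricter endothelial condition and 0 UMIs of Ptprc were required only with the P180 label. Among the other endothelial cells with the E18.5 label, 12.2% held Ptprc. With the P180 label, 58.5% of the 130 cells that met the stricter condition still held the neutrophil gene Camp.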

How the results depend on the processing

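The alternatives were run on 136 gene ratios, of which 116 were at least 2-fold. These were the highest and lowest ranked genes, picked by their ratio in the same data, and a fixed set such as Vwf, Wnt2 and Kit. Most list genes named in the text, such as Ephb4, were not run, nor were ratios over all endothelial cells with the P180 label. All 116 kept their direction under every alternative run, and 107 stayed at least 2-fold. The other 9 came under 2-fold in at least 1 alternative, with these lowest log2 sizes: over the vessel gate Fabp4 0.65, Kdr 0.83 and Vwf 0.96; over the sinusoidal gate Eng 0.87; over other endothelial cells Kit 0.84 and Thbd 0.91; and over the 25 cells with the P180 label Eng 0.97, Wnt9b 0.85 and Mical2 −0.79. The median of the proliferation list over the vessel gate reversed to 0.21 with a mean over cells, against a value below 0 with summed UMIs, and the cause was not tested. Of the 46 list medians over the sinusoidal and vessel gates, 21 took both signs over the alternatives. Over the vessel gate the stress list ranged from −0.77 to 0.41 and the angiocrine list from −0.94 to 0.13. Over the sinusoidal gate the shear stress list ranged from −0.48 to 0.91.

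A mitochondrial limit of 10% left 143 of the 246 members. Counts of genes at least 2-fold apart moved with the settings as follows, since thinning and a higher UMI minimum leave fewer genes to describe and the fold sets the call. Over the sinusoidal gate 451 genes were higher; thinning to 1000 UMIs gave 140, minimums of 20 and 200 UMIs gave 790 and 182, and folds of 1.5 and 4 gave 1012 and 167. The 342 lower genes became 147, 627, 117, 689 and 115 in the same order, and 226 at the 10% mitochondrial limit. Over the vessel gate the 333 higher genes became 102, 513, 145, 669 and 124, and the 330 lower genes 77, 668, 103, 636 and 138. Over other endothelial cells the 379 higher genes became 147 when thinned, 193 at 200 UMIs, 904 at 1.5-fold and 110 at 4-fold. The 1139 lower genes became 296, 1859, 369, 1744 and 631 in the order first given, 528 with an endothelial sum of 5 and 661 without cells with Ptprc or much haemoglobin. Over the 25 cells with the P180 label the 744 higher genes became 219, 1229, 228, 1289 and 263, and the 211 lower genes 54, 564, 48, 704 and 28, or 118 with median of ratios. Over all endothelial cells with that label the 2330 higher genes became 364 when thinned, 1061 at 200 UMIs, 1094 at 4-fold, 1438 with median of ratios, 1225 with a mean over cells and 816 with the stricter set. The 2843 lower genes became 293 when thinned, 1875 at 200 UMIs, 1369 at 4-fold and 440 with the stricter set.

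No paired analysis was possible because each label has 1 library and no test was made. The 25 cells held fewer UMIs in all, so 50 UMIs stand there for a higher level than in the 246 members.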
